A study of Mus musculus with 17 samples.

Results

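Constitutive protein-coding promoter regions were the accessible regions that carried an ATAC-seq summit in every one of 17 mouse kidney libraries and whose midpoint lay within 1 kb of the start of a protein-coding transcript. A summit is the position of highest signal within a peak of accessible chromatin. The 29702 highest-scoring summits of each library were widened by 250 bp in both directions and joined where they overlapped, giving 116484 regions. Of these, 7867 held a summit of all 17 libraries, and 5844 of those 7867 met the promoter rule (74.3% of them, and 5.02% of all regions). The members were thus chosen by the measured summits themselves, so that their presence in every mouse and their high scores describe the rule and are not findings.

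The Ctrl group held 5 male C57BL/6 mice. The Case group held 6 male diabetic mice of the strain BKS.Cg-Dock7m +/+ Leprdb/J, called db/db here, in which the leptin receptor does not work. The Dapa group held 6 such db/db mice treated with dapagliflozin, which blocks the sodium-glucose transporter SGLT2 of the proximal tubule. Treatment started at 8 weeks of age and lasted 6 weeks, by gavage at a daily dose of 1 mg/kg, and Ctrl and Case mice were given saline instead. Each library came from 20000 kidney cells of 1 mouse. Ctrl differed from both db/db groups in strain, in genotype and in diabetes at once, and these cannot be told apart. Since whole kidney was used, a change in the share of a cell type and a change of accessibility within its cells cannot be told apart either.

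A promoter is the stretch of DNA around a transcription start where general transcription factors and RNA polymerase II assemble. Promoters of genes used by nearly all cells are often CpG islands, stretches rich in the dinucleotide CG that tend to stay free of nucleosomes and are bound by factors such as SP1 (at the GC box), NF-Y (at the CCAAT box), ETS proteins and NRF1. Transposase inserts readily into such open DNA, and distal elements that differ between cell types are more variable between samples.

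The sequences of 11 members are shown as a description, and no test between groups used sequence. These 11 were the members without near-identical copies that passed the test between groups, the member first in the order of p by summit position, 3 members of high level, and a repeat-derived member. Except for the last, each sequence is the first exon-free stretch upstream of the annotated start, at most 150 bases long, read 5′ to 3′ on the strand of the gene from GRCm38. Capitals mark matches to the motif letters given further on, on either strand. Slc9a2, which also passed the test, has annotated exon sequence upstream of its start, and its sequence is not printed.
Dnajc24 (chr2:106003550-106003699, minus strand): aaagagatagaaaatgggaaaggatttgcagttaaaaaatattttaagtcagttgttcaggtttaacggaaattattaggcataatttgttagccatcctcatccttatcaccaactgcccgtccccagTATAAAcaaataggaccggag
Rab4b (chr7:27178897-27179046, minus strand): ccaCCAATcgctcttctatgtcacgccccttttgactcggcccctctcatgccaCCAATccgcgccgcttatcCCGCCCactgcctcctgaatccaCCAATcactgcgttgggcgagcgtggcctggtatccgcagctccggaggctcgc
Nipa2 (chr7:55962477-55962530, minus strand): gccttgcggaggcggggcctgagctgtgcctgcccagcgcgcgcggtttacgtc
Tspan13 (chr12:36042501-36042650, minus strand): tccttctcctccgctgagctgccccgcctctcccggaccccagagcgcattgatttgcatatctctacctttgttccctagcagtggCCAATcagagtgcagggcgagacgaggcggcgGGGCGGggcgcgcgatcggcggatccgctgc
Tial1 (chr7:128461718-128461867, minus strand): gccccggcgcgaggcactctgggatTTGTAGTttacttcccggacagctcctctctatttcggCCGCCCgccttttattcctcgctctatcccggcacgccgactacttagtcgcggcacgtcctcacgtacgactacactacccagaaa
Cltc (chr11:86757566-86757715, minus strand): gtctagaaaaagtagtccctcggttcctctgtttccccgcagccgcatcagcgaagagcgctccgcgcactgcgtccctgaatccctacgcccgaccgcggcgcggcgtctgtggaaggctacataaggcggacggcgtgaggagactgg
Dyrk2 (chr10:118869150-118869299, minus strand): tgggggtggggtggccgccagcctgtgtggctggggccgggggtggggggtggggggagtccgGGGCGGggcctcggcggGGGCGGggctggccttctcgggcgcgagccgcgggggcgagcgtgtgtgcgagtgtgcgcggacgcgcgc
Ripk2 (chr4:16163648-16163797, minus strand): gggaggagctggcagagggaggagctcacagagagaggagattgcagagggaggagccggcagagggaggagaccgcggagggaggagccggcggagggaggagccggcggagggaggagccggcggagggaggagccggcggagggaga
Zfp654 (chr16:64851653-64851802, minus strand): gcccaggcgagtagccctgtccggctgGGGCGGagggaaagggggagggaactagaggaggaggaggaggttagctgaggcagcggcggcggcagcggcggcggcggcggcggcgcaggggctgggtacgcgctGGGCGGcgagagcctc
Hspa5 (chr2:34771820-34771969, plus strand): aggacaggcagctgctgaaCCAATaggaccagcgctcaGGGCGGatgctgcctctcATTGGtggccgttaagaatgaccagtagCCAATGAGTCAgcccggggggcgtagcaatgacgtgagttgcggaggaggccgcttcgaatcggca
Gm11168 (chr9:3003345-3003495, plus strand, around its summit): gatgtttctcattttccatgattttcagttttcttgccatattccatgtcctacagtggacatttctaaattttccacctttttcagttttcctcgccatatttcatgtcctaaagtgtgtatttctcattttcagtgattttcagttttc

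These sequences differed widely. The Hspa5 stretch held 3 CCAAT boxes, 1 GC box and 1 AP-1 match that overlaps a CCAAT box. The Rab4b stretch held 3 CCAAT boxes and 1 GC box. Ripk2 showed a run of similar GC-rich units with none of the motif letters. The stretch upstream of Dnajc24 had a GC content of 36.7%, and that of Dyrk2 82.7%. The median summits of Dnajc24, Zfp654 and Dyrk2 lay outside their printed stretches. In the 301 bp around the median summit of Dnajc24 the GC content was 58.8%. The Gm11168 sequence had a GC content of 33.8% and a single CG in 151 bases, and it was made of a short unit that recurs within the window.

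The members covered the starts of 6572 of 21853 protein-coding genes (30.1%). Of 16755 merged regions within 1 kb of a protein-coding start, 34.9% were constitutive, against 2.03% of the 99729 regions farther away. The median width was 723 bp, and 69.9% of the members held exactly 1 summit of each library. A pair of divergent genes shared 714 members (12.2%), against 336 of 7719 promoter regions present in 2 to 16 libraries (4.35%), which are called variable promoters here. These shares are given without a test. Autosomes carried nearly all members, with 25.8% (chromosome 14) to 38.3% (chromosome 12) of their protein-coding genes. On X, 47 members covered 5.80% of the genes, and 1 member lay on Y.

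The summits of the members gathered just upstream of the transcription start. The median summit of a region lay at −44 bp from the nearest start in the direction of the gene, and 76.0% of the members had it upstream. It lay within 100 bp of the start in 69.6% of the members and within 250 bp in 90.3%. By the annotation, 57.8% of the median summits were upstream of any protein-coding transcript or between genes, 26.5% in an untranslated exon, 14.0% in an intron and 1.68% in a coding exon. The rule joins only summits that lie near each other, so that a limited spread of positions follows from it. The SD of the highest summit's position over the 17 libraries had a median of 46.2 bp, from 24.1 bp at the 10th percentile of members to 162 bp at the 90th.

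Base composition set the members apart from other accessible regions as a description, since no test was made. In the 301 bp around the median summit the members had a median GC content of 65.4% and a median ratio of observed to expected CpG of 0.834, and this ratio exceeded 0.6 in 87.4% of them. Variable promoters had medians of 62.1% and 0.715 (61.8% over 0.6). The 2023 constitutive regions away from protein-coding starts had medians of 54.2% and 0.253 (20.1% over 0.6).

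The motif letters were searched on both strands, and matches of different motifs may overlap. The GC box bound by SP1 was searched as GGGCGG and the box of NF-Y as CCAAT. ETS factors were represented by the letters CCGGAAG, and NRF1 was represented by the letters GCATGCGC. The cAMP response element was searched as TGACGTCA, while for YY1 the search used AAGATGGC and for ZNF143 it used ACTACAA. The E-box was searched as CACGTG and the TATA box as TATAAA. Finally, HNF1 was represented by the letters GTTAATNAT, and for AP-1 the search used TGACTCA. The GC box was found in 78.8% of the members, 55.2% of variable promoters, 25.9% of constitutive regions away from promoters and 35.7% of 32851 RefSeq promoter windows of GRCm38 (250 bases before to 50 after each start). The CCAAT box stood in 46.1% of the members against 28.7%, 33.5% and 37.4% in the same order. The ETS letters stood in 20.5%, 13.3%, 3.91% and 8.86%, and the NRF1 letters in 5.90%, 3.85%, 1.38% and 2.71%. For the kidney factor HNF1 the order was different, with 0.359% of the members, 1.10% of variable promoters and 5.04% of constitutive regions away from promoters. Likewise, the AP-1 letters stood in 2.48% of the members and 9.64% of constitutive regions away from promoters, and TATAAA in 3.20% of the members against 13.6% of the RefSeq windows.

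**Figure D1:**
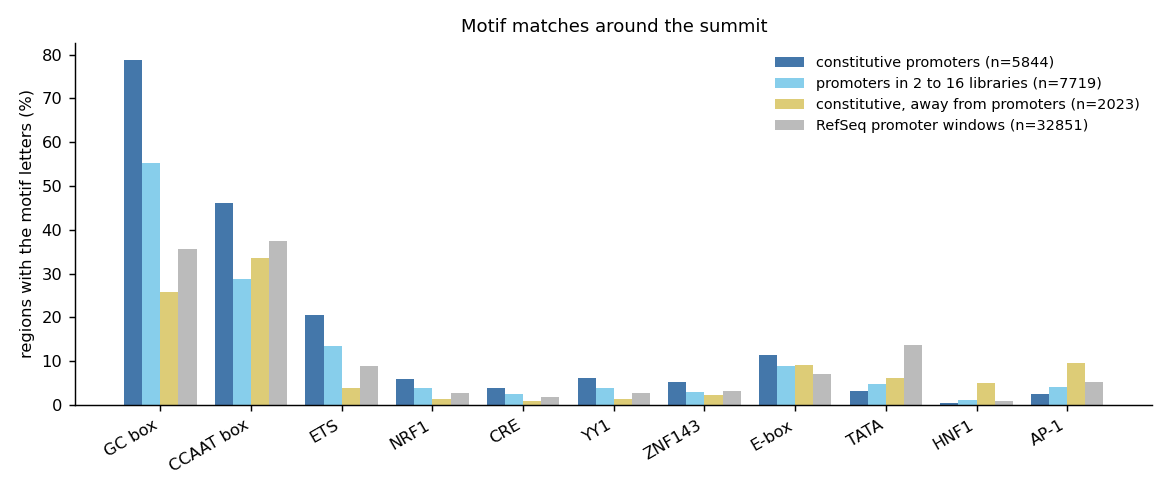
Share of regions (percent, vertical axis) with each set of motif letters on either strand, for the 5844 constitutive promoters, the 7719 promoters in 2 to 16 libraries, the 2023 constitutive regions away from promoters and the 32851 RefSeq promoter windows. The GC box stood in 78.8% of the members and 25.9% of the constitutive regions away from promoters, while HNF1 and AP-1 letters were more frequent in the latter.

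The level of a member was its rank percentile, from 0 for the lowest to 100 for the highest score in the equal-length list of a library, taken at the highest summit of the region. It compares a region with the others of the same library and is not an amount of accessibility. Over the 17 libraries the mean percentile of a member had a median of 83.0, with 63.9 at the 10th percentile of members and 95.3 at the 90th. The mean exceeded 90 in 1624 members and was under 50 in 69. The spread over libraries fell as the level rose (Spearman's rho between mean and SD −0.918 across members, which are not independent, and which the upper bound of the scale itself compresses). Members with a CCAAT box had a median level of 87.1 and those without 79.3. The medians were 87.7 with and 82.7 without the ZNF143 letters, and 83.9 with and 80.0 without a GC box. They were lower with than without the letters of HNF1 (75.8 and 83.0, in 21 members), NRF1 (81.5 and 83.1), the E-box (81.7 and 83.2) and TATA (81.2 and 83.0). Members shared by divergent genes had a median of 86.1 and the others 82.5.

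**Figure D2:**
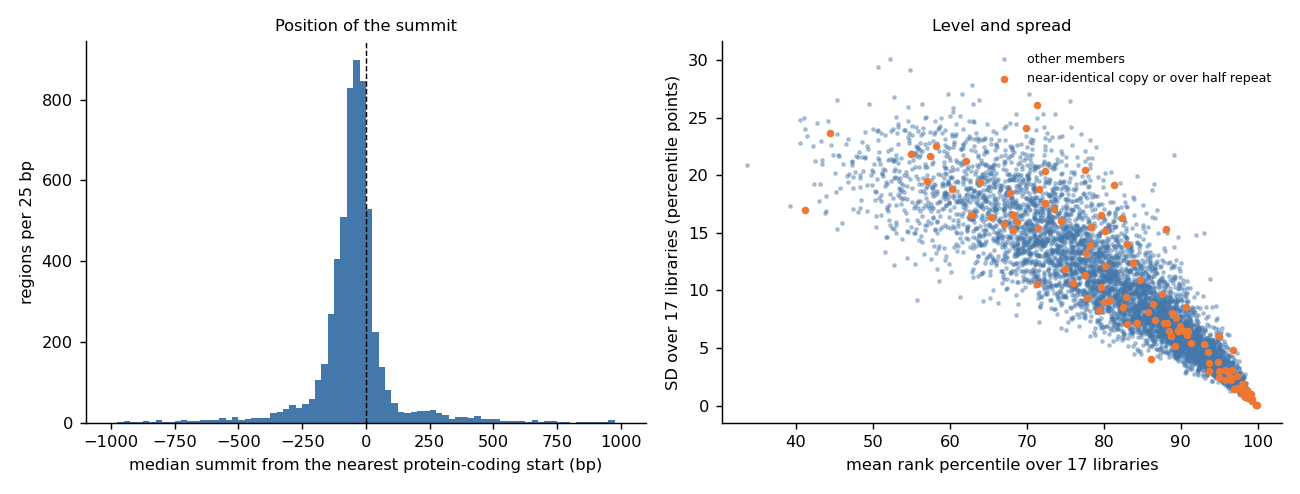
Left, number of members per 25 bp by the distance of the median summit from the nearest protein-coding start (bp, negative upstream). Right, SD over 17 libraries against mean rank percentile for each member, with the 107 members that have a near-identical copy or are over 50% repeat-masked in orange. Most summits lie just upstream of the start (median −44 bp), and spread falls with level.

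The highest levels belonged partly to repeats. The 3 members at the top were Gm10800 (mean percentile 99.9) and Gm10801 (99.8), both predicted genes on chromosome 2, and Gm10722 (99.7), a predicted gene at the start of chromosome 9. Their windows were 98.0%, 80.7% and 100% repeat-masked. Of all members, 26 were repeat-masked over more than 50% of the window and 96 had a near-identical copy elsewhere in the genome, 107 in all. Values at such loci are uncertain, since reads of the copies may be split or pooled. Ripk2, the kinase that signals from NOD receptors, stood at 99.6 ± 0.131 (SD, n = 17) with a lowest value of 99.3, and the shared promoter of Zfp654 and Cggbp1 stood at 99.5 ± 0.225. Garem1, an adaptor of growth factor receptors, followed at 99.3, then Opn3/Chml (an opsin and a Rab escort protein) at 99.3 and Dynlt1b, a dynein light chain with 3 near-identical copies, at 99.3. Gm10800, Gm10801, Gm10722 and Ripk2 also had the smallest SDs of all members. No difference between these neighbours is read from the order, since their ranges overlapped from Ripk2 down.

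At the lower end the divergent pair Surf1/Surf2, of which Surf1 serves cytochrome c oxidase assembly, had a mean percentile of 33.6 ± 20.9 (SD, n = 17) and ran from 5.49 to 75.7. Cnnm1, of the magnesium-related CNNM family, stood at 39.3 ± 17.4, the myelin and epithelial protein gene Pllp at 40.5 ± 22.8 and Fgd3, an exchange factor for Cdc42, at 40.6 ± 24.8. The most variable members were Sepsecs, which makes selenocysteinyl-tRNA (SD 30.1), the F-box gene Fbxo4 (29.4), Tapt1 (29.1) and Plekha8, a lipid transfer protein (27.9). Sepsecs had group means of 76.9 in Ctrl, 51.4 in Case and 32.4 in Dapa. Tapt1 had means of 83.1, 40.9 and 45.2, while Fbxo4 had nearly equal means (48.1, 52.0 and 51.3) with a wide spread inside each group. Sepsecs, Tapt1 and Fbxo4 were named for their large spread, and none passed the test between groups given further on.

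The members nearest the limit of the rule reached almost the end of a list. Prodh2, an enzyme of hydroxyproline breakdown, was at percentile 0.236 in Dapa 10, the lipid droplet gene Plin2 at 0.264 in Case 5, Fam83g at 0.357 in Dapa 10 and the actin-binding Ablim1 at 0.470 in Ctrl 1. Just outside, Ifrd1 averaged 97.7 in 16 libraries and had no summit in Dapa 9, Zfp687 averaged 96.3 without Dapa 9, Fbh1/Ankrd16 96.0 without Dapa 12, and Pnrc1 92.7 without Case 2. In all, 1272 promoter regions were missing from the equal-length list of a single library, and 247 of them had a summit farther down in the full list of that library. Of the 1272 regions, 314 were missing from Case 3, 178 from Case 2, 157 from Case 4 and 135 from Dapa 9. Each Ctrl library accounted for 7 to 26. Case 3, Case 2, Case 4 and Dapa 9 also had the 4 shortest lists (29702 to 32846 summits before lists were made equal).

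Genes of basic cell functions were strongly represented. A constitutive promoter region was found for 32 of 34 chaperone and unfolded protein response genes (94.1%), 24 of 30 DNA repair genes (80.0%), 19 of 25 cholesterol synthesis genes (76.0%), 17 of 23 promoter-binding transcription factors (73.9%), 14 of 19 aminoacyl-tRNA synthetases (73.7%) and 26 of 36 DNA replication and cell cycle genes (72.2%). The shares were 28 of 40 chromatin regulators (70.0%), 22 of 32 proteasome subunits (68.8%), 54 of 79 cytosolic ribosomal proteins (68.4%), 23 of 36 autophagy and lysosome genes (63.9%), 28 of 45 spliceosome proteins (62.2%), 21 of 34 translation initiation factors (61.8%) and 26 of 43 genes of RNA polymerase II and general transcription factors (60.5%). Of all protein-coding genes 30.1% had one. Only 1 gene of these 13 lists, a spliceosome gene, had no promoter region in any library.

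Genes that mark cell types had a constitutive promoter region less often, given as a description without a test. Of 27 kidney epithelial genes, 5 (18.5%) had a constitutive promoter region, a smaller share than the 30.1% of all protein-coding genes. These were Cdh16 (kidney cadherin, mean percentile 89.2), the water channel Aqp1 (85.9), the endocytic receptor Lrp2 (77.1), and the transcription factors Hnf4a (72.2) and Pax8 (69.4). Another 16 had a promoter region in some libraries only, and 6 had none. None of 25 leukocyte, 15 endothelial and 20 brain and muscle genes had a constitutive promoter region, while 14, 5 and 4 of them had a region in some libraries.

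**Figure D3:**
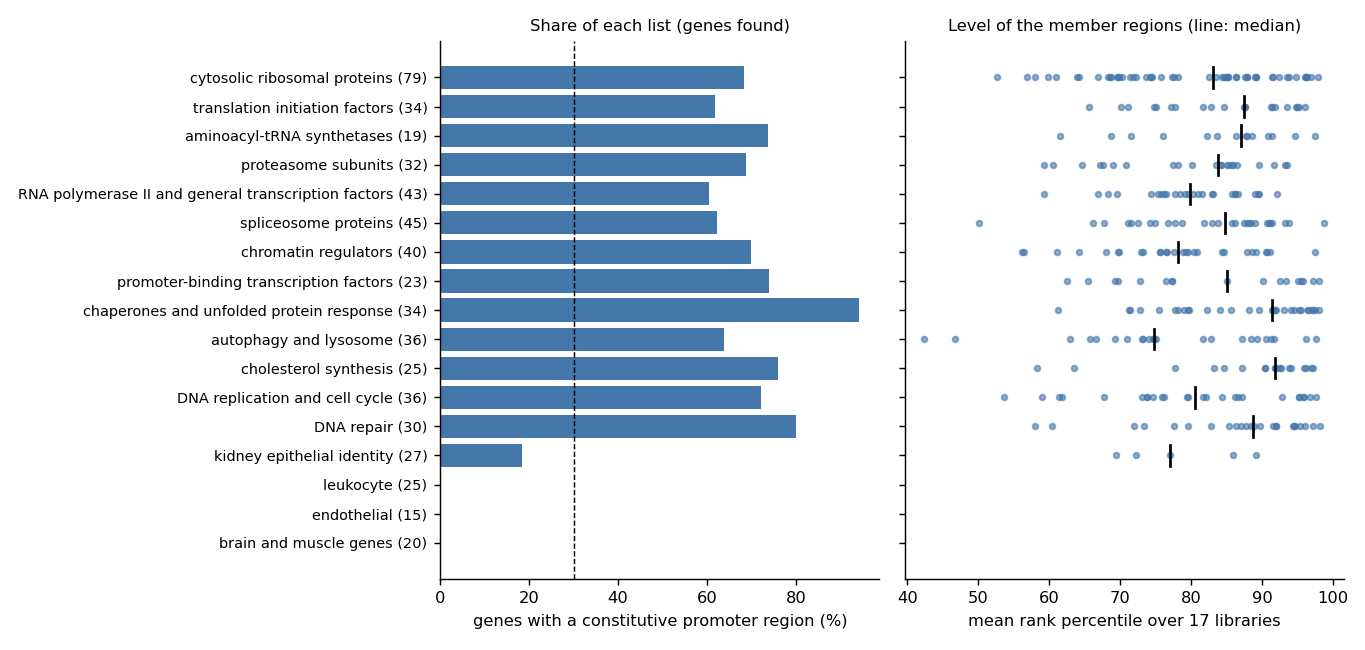
Left, share of the genes of each list (percent) with a constitutive promoter region, with the number of genes found in brackets and the 30.1% of all protein-coding genes as a dashed line. Right, mean rank percentile over 17 libraries of each member region, with the median of the list as a line. Chaperone genes reached 94.1%, and leukocyte, endothelial, brain and muscle lists have no member.

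Within each list levels spread widely. Cholesterol synthesis genes (median 91.9) and chaperones (91.4) had the highest medians, against 83.0 over all members, and autophagy and lysosome genes (74.8) the lowest among lists with members. Hmgcs1, the HMG-CoA synthase of sterol synthesis, stood at 97.2 and Msmo1 at 96.9. Among chaperones, Hspa5 (the ER chaperone BiP) stood at 98.1 and Calr at 97.5, while the chaperonin subunit Cct4 stood at 61.2. Ribosomal genes ran from Rpl15, which shares its region with Nkiras1 (97.9), and Rpl27a (97.0) to Rpl6 (52.7). The translation factors Eif5 (96.1) and Eif2s1, whose region is shared with Atp6v1d (95.2), were high and Eif3b (65.6) was low. Of the synthetases Lars (97.5) and Tars (94.7) were high and Sars (61.5) low. The proteasome genes Adrm1 (93.6) and Psmc4 (93.2) contrasted with Psmd1 (59.3).

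The nuclear lists showed the same range. Hnrnpc (98.7) and Snrpa (93.8), which bind pre-mRNA and U1 snRNA, were high and the spliceosome gene Prpf3 (50.1) was low. Taf3 (92.1) and Polr2h (89.6), of TFIID and RNA polymerase II, contrasted with the kinase Cdk7 (59.4). The remodeller Chd8 (97.5) and the cohesin subunit Smc3 (91.1) contrasted with Wdr5 (56.2). Zfp143 (98.0) and Max (97.2), themselves promoter-binding factors, contrasted with Elf2 (62.6). The replication genes Gins2 (97.6) and Mcm3 (96.7) stood over Rfc4 (53.7), and the repair genes Xrcc1 (98.2) and Ogg1 (97.1) over Atr (58.1). In lysosomes, the cholesterol carriers Npc2 (97.6) and Npc1 (96.2) stood over Ctsa, in a region shared with Neurl2 (42.4).

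Case 3 and Dapa 8 stood apart from the other libraries of their groups. The median percentile of the constitutive regions away from promoters was 70.8 in Case 3 and 80.9 to 83.2 in the other Case mice, and 76.9 in Dapa 8 and 81.5 to 82.6 in the other Dapa mice. The members' rank correlation between percentile and CpG ratio was 0.152 in Case 3 and 0.0837 in Dapa 8, and between −0.120 and 0.00157 in the other 15. Equal scores were common, with 91.5% to 94.97% of the summits of a list sharing their score with another. The depth of the libraries is unknown.

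The first comparison asked whether the promoters open in every mouse held the same rank in diabetic as in healthy kidneys. The mean percentile of the members in a library was 82.8, 81.4, 82.5, 83.1 and 83.5 in the Ctrl mice. In Case it ran from 79.8 to 80.9 (median 80.5), below every Ctrl mouse. Group means were 82.7 ± 0.784 (SD, n = 5) in Ctrl and 80.4 ± 0.399 (SD, n = 6) in Case. In Dapa the mean was 80.2 ± 1.80 (SD, n = 6), from 78.6 to 83.6. Dapa 8 had the 83.6, the highest of all 17 mice, and the other 5 were all below every Ctrl mouse (79.5 ± 0.741, n = 5). Without Case 3, the Case mean was 80.3 ± 0.339 (n = 5).

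The share of members ranking low in their library moved the same way. In Ctrl 3.29% to 5.41% of the members were under percentile 50, in Case 6.33% to 7.99% and in Dapa 3.92% (Dapa 8) to 9.03%. The regions away from promoters ranked the other way in most db/db mice, with medians of 77.0 to 79.7 in Ctrl, 80.9 to 83.2 in Case without Case 3 and 81.5 to 82.6 in Dapa without Dapa 8. Since ranks are relative, a fall of the members and a rise of other regions cannot be told apart. Of all summits of a list at percentile 90 or above, 75.5% to 79.9% lay in members in Ctrl, 70.5% to 76.2% in Case and 67.7% to 80.9% in Dapa.

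**Figure D4:**
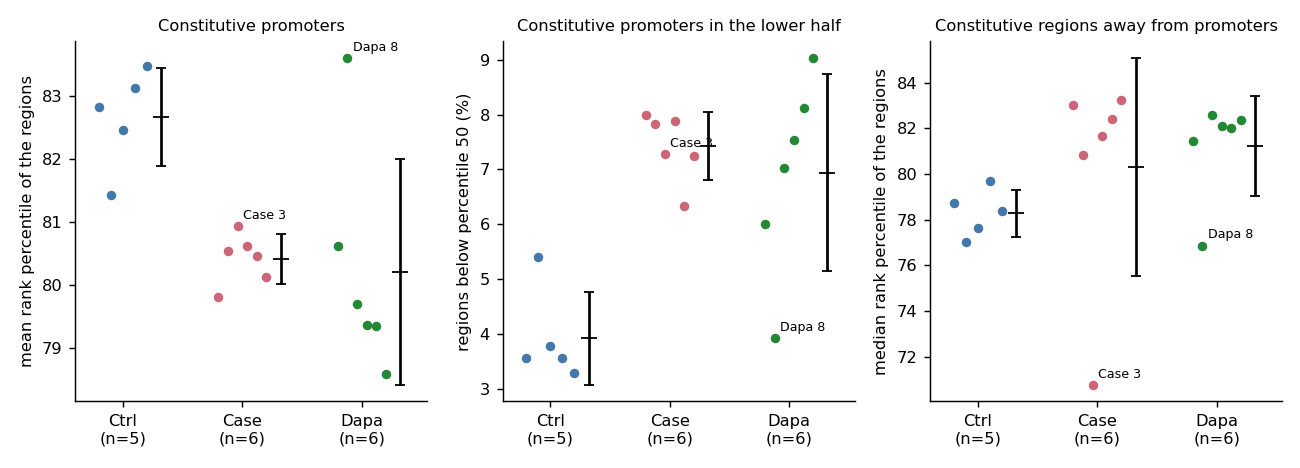
Points are libraries, with the group mean ± SD beside them. From left to right, the mean rank percentile of the 5844 members, the percentage of members below percentile 50, and the median rank percentile of the 2023 constitutive regions away from promoters. All 6 Case mice lie below all Ctrl mice in the first panel, and Dapa 8 and Case 3, which are named, lie apart from their groups.

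The differences were largest in the members richest in GC. In the 1396 members with the highest GC content (70.8% to 86.7%) the median difference of Case minus Ctrl was −2.70 percentile points, while in the 1540 with the lowest (32.9% to 60.8%) and the 2 classes between them it was −1.11, −1.14 and −1.22. For Dapa minus Ctrl the medians were −4.10, −0.384, −1.16 and −1.84 in the same order. The part of GC content in the results was not tested.

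Member by member, few differences between Case and Ctrl passed the test. In limma's test over all 7867 constitutive regions (adjusted p under 0.05, Benjamini-Hochberg), 3 members were called higher and 2 lower in Case, where 0.483% of all regions tested were called higher and 0.0254% lower. The 3 higher members were repeats at the start of chromosome 9, so that among the members without copies or repeats the called ones were the 2 lower. The median difference of the members was −1.49 percentile points and that of the other constitutive regions 0.242, and with all summits of each list the members' median was −3.48. An unadjusted p under 0.05 was found for 178 members (3.05%) with a higher percentile in Case, against 5.97% of all regions tested, and for 449 (7.68%) with a lower one, against 6.74%. In 22 members (0.376%) every Case mouse was above every Ctrl mouse, against 1.3% of all regions tested, and in 101 (1.73%) every Case mouse was below, against 1.58%. Under percentiles re-ranked within the constitutive regions the members called were 7 higher and 31 lower, where 0.941% and 0.47% of all regions were called. Under normal scores they were 6 and 87, where 1.51% and 1.33% of all regions were called, and under library weights 6 and 21, where 0.597% and 0.33% were. The lower calls were thus 0.53%, 1.49% and 0.359% of the members, near the share over all regions, and the number and the direction of the calls varied between these settings. No member was called with regions in at least 15 libraries (0) or with the 2 groups alone (0). With all summits 1 was called, and without a trend 1. Shares over all regions are not given for these last settings, so the counts are not read as a result about the members.

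Dnajc24, a J-domain protein of diphthamide synthesis on elongation factor 2, had percentiles of 87.6, 80.6, 95.6, 70.2 and 77.5 in the Ctrl mice. In Case they ran from 2.80 to 58.3 (median 38.1), and in Dapa from 59.9 to 86.2 (median 75.2). Case did not overlap either of the other groups, which overlapped each other, but the highest Case value (58.3, Case 4) nearly met the lowest Dapa value (59.9, Dapa 7). Equal scores share a percentile, and Case 4 had 58.3 at Tspan13 too, while Dapa 7 had 59.9 at Tspan13, Nipa2 and Rer1. The difference of Case minus Ctrl was −45.7 (SE 8.82, limma adjusted p = 0.0259). Its summit lay 258 bp downstream of the annotated start, in an untranslated exon, in the region chr2:106002825-106003602. The call was lost when any one of Ctrl 1, Ctrl 2, Ctrl 3, Case 1 or Case 6 was left out, with adjusted p between 0.00736 and 0.316 over all alternatives.

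Rab4b, a small GTPase of endosome recycling, stood at 98.6, 96.9, 97.5, 98.9 and 98.9 in Ctrl, at 85.5 to 95.2 (median 90.8) in Case and at 91.9 to 98.6 (median 95.5) in Dapa. No Case mouse reached the lowest Ctrl mouse, and Dapa lay across both. The difference was −7.62 (SE 1.59, limma adjusted p = 0.0402, range over the alternatives 0.0104 to 0.316). The call was lost without any one of Ctrl 1, 2, 3 and 5 and Case 1, 4, 5 and 6. The region spans chr7:27178219-27179288, with the summit 100 bp upstream of the start, within the printed stretch.

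Of the repeat-derived members, 14 lay between positions 3000188 and 3038394 of chromosome 9, and all 14 had a higher mean percentile in Case than in Ctrl, by 0.00875 to 29.5 points (median 9.17). All 14 were also higher in Dapa than in Ctrl, by a median of 7.99 points. Their windows had a median GC content of 35.4% and at least 81.7% repeat-masked bases, with up to 42 near-identical copies. Gm11168 was at 86.6, 91.7, 88.2, 91.6 and 92.5 in Ctrl, at 92.2 to 98.5 (median 97.2) in Case and at 94.6 to 98.5 (median 97.5) in Dapa. Only the lowest Case mouse, Case 5, fell within the Ctrl values. The differences from Ctrl were 6.41 for Case (SE 1.27, limma adjusted p = 0.0308) and 7.09 for Dapa (SE 1.27, adjusted p = 0.0349).

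The other called repeats were also higher in both db/db groups. Gm17535 rose from a Ctrl mean of 95.7 to 99.0 in Case (difference 3.30, limma adjusted p = 0.0360) and 99.0 in Dapa (3.36, adjusted p = 0.0376), although Ctrl 4 was at 98.9. By medians, Gm10718 rose from 92.1 to 97.7 in Case (4.89, limma adjusted p = 0.0402) and 98.3 in Dapa (5.25, adjusted p = 0.0349). A second region of Gm10717 rose from 83.9 to 95.8 in Dapa (10.0, limma adjusted p = 0.0408). These loci share sequence and are not independent of each other. Each of these calls, Gm11168 included, was lost when any one of 6 to 10 mice was left out, Ctrl 1 and Ctrl 3 among them every time. The limma adjusted p of each rose to between 0.148 (Gm11168, Dapa against Ctrl) and 0.316 (Gm11168, Gm17535 and Gm10718, Case against Ctrl) under the alternative with the highest value.

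The second comparison asked whether dapagliflozin changed the rank of these promoters in db/db mice. No member was called by limma in either direction, where 0% of all regions were called higher and 0% lower (smallest adjusted p among the members 0.809). At an unadjusted p under 0.05 there were 179 members (3.06%) with a higher percentile in Dapa, against 3.18% of all regions tested, and 172 (2.94%) with a lower one, against 2.72%. In 4 members every Dapa mouse was above every Case mouse, against 0.0508% of all regions tested, and in 7 every Dapa mouse was below, against 0.114%. The median difference was −0.206 points over the members and 0.120 over the other constitutive regions. The members' median turned to 0.696 with all summits of each list and to 0.0835 without Dapa 12, and was −0.604 without Dapa 8.

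The first members by p are given as values. Dnajc24 was 37.0 points higher in Dapa than in Case (95% interval 19.3 to 54.7, limma adjusted p = 0.809). Its Case and Dapa values did not overlap but nearly met (58.3 and 59.9). Rpl28, a ribosomal protein gene, had values of 65.1, 76.0, 70.9, 80.5 and 73.1 in Ctrl, 40.9 to 78.8 (median 69.0) in Case and 79.7 to 92.8 (median 86.5) in Dapa. Every Dapa mouse was above every Case mouse (difference 23.5, interval 10.7 to 36.3, limma adjusted p = 0.809). Tpst2, a protein tyrosine sulfotransferase, had medians of 98.0, 96.0 and 98.4 in Ctrl, Case and Dapa (difference 2.78). The shared region of the junction gene Vezt and of Fgd6 had medians of 98.7, 94.7 and 98.9 (difference 3.94).

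In the other direction, Trp53inp2, a regulator of autophagy, was at 83.3, 84.4, 83.8, 92.5 and 75.8 in Ctrl, 89.3 to 96.0 (median 94.6) in Case and 62.4 to 85.3 (median 74.0) in Dapa, where no Dapa mouse reached a Case mouse. The difference was −19.7 (interval −28.9 to −10.4, limma adjusted p = 0.809). The cohesin gene Stag1 had medians of 82.9, 94.9 and 75.8, with Dapa 8 at 94.2 and the other Dapa mice at 72.4 to 76.4. Nipa2 had medians of 91.0, 82.6 and 62.6, and the region of the retrieval receptor gene Rer1 and Morn1 had 87.7, 92.2 and 74.3. These members did not pass the test.

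The third comparison set treated db/db mice against healthy mice and shares the Ctrl mice with the first. By limma 6 members were called higher and 3 lower in Dapa, where 0.369% of all regions tested were called higher and 0.0636% lower. Of the 6 higher members 4 were the repeats on chromosome 9, and Tial1 and Cltc were unique. The median difference was −1.69 points over the members and 1.30 over the other constitutive regions. At an unadjusted p under 0.05 there were 192 members (3.29%) with a higher percentile in Dapa, against 6.13% of all regions tested, and 520 (8.9%) with a lower one, against 7.45%. Every Dapa mouse was above every Ctrl mouse in 33 members (0.565%), against 1.12% of all regions tested, and below in 123 (2.10%), against 1.74%. With re-ranked percentiles the members called were 14 higher and 17 lower, where 0.597% and 0.254% of all regions were called. With normal scores they were 11 and 31 (0.763% and 0.458% of all regions), with library weights 7 and 6 (0.394% and 0.102%), and without Case 3 and Dapa 8 they were 7 and 9 (0.292% and 0.14%). A single member was called with all summits (1), without a trend (1) and with regions in at least 15 libraries (1), and 0 with the 2 groups alone. For these last settings no share over all regions is given, and the counts are not read as a result about the members.

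Nipa2, a magnesium transporter gene, was at 94.2, 90.1, 91.0, 91.9 and 88.0 in Ctrl, 73.7 to 93.9 (median 82.6) in Case and 52.4 to 80.8 (median 62.6) in Dapa. Dapa was separated from Ctrl and Case lay across the gap (Dapa minus Ctrl −26.3, SE 5.10, limma adjusted p = 0.0349). The call was lost without any one of Ctrl 1, 2 and 3 and Dapa 7, 9, 10 and 12, with limma adjusted p between 0.0149 and 0.156 over all alternatives. The summit lay 11 bp upstream of the start in chr7:55962172-55962829.

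Tspan13, a tetraspanin gene, was at 83.0, 89.6, 82.5, 73.8 and 85.5 in Ctrl, 39.0 to 91.5 (median 54.8) in Case and 5.65 to 59.9 (median 32.6) in Dapa. All Dapa mice were below all Ctrl mice, and 5 of the 6 Case mice were too (all but Case 2, at 91.5). The difference of Dapa minus Ctrl was −50.0 (SE 10.3, limma adjusted p = 0.0376). Slc9a2, the sodium-proton exchanger NHE2, was at 62.7, 76.8, 79.8, 84.8 and 67.6 in Ctrl, 37.9 to 72.0 (median 55.6) in Case and 4.84 to 49.7 (median 30.4) in Dapa. Here Case overlapped both other groups, and Dapa minus Ctrl was −43.5 (SE 8.99, limma adjusted p = 0.0376). Leaving out any one of 9 mice for Tspan13 and of 10 for Slc9a2 ended the call, and these included all Ctrl mice for Slc9a2 and all but Ctrl 4 for Tspan13. Over all alternatives the limma adjusted p ran from 0.0195 to 0.156 for Tspan13 and from 0.0260 to 0.156 for Slc9a2, and both calls were also lost with re-ranked percentiles.

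Tial1, an RNA-binding protein of stress granules, was at 96.6, 95.1, 95.3, 96.2 and 96.9 in Ctrl, 95.5 to 98.5 (median 97.1) in Case and 97.8 to 99.5 (median 99.3) in Dapa (Dapa minus Ctrl 2.90, SE 0.563, limma adjusted p = 0.0349). Its summit lay 137 bp upstream of the start, within the printed stretch. Cltc, the clathrin heavy chain gene, was at 78.0, 72.9, 80.0, 80.4 and 82.8 in Ctrl, 85.4 to 97.3 (median 93.9) in Case and 83.1 to 98.5 (median 95.1) in Dapa. All db/db mice, treated or not, were above all Ctrl mice for Cltc (Dapa minus Ctrl 14.8, SE 3.09, limma adjusted p = 0.0379). Leaving out 1 of 7 mice for Tial1 (Ctrl 1, 2 and 3 and Dapa 7, 9, 10 and 12), or 1 of 8 for Cltc (Ctrl 1, 2 and 3 and Dapa 8, 9, 10, 11 and 12), ended the call. Over all alternatives the limma adjusted p ran from 0.0163 to 0.275 for Tial1 and from 0.0336 to 0.171 for Cltc. Over all members, 3 (0.0513%) were higher in every db/db mouse than in every Ctrl mouse, against 0.369% of all regions tested, and 1 of the 3 was without copies or repeats. In the other direction 30 (0.513%) were lower, against 0.483%.

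**Figure D5:**
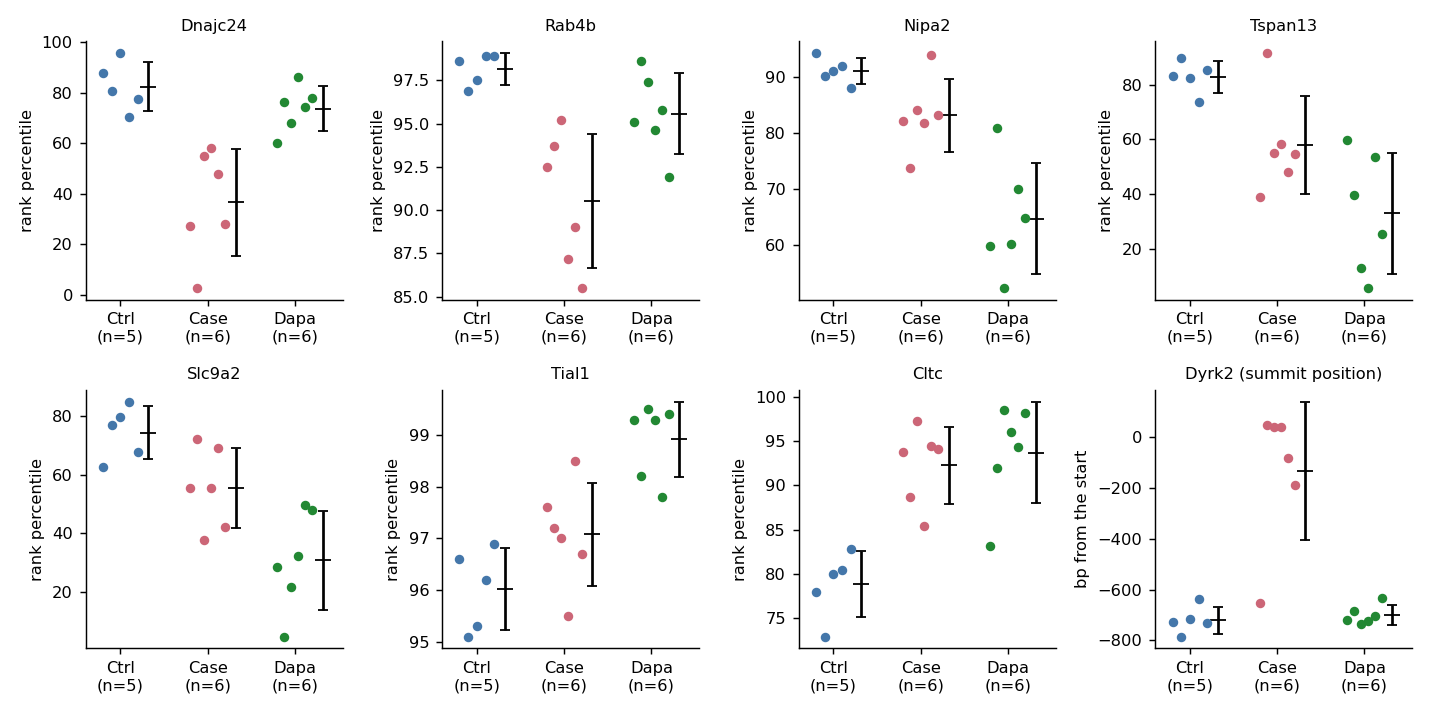
Rank percentile (vertical axis) of the 7 called members without copies or repeats in each library, and, in the last panel, the distance of the highest summit of Dyrk2 from its start (bp, negative upstream). Points are mice and bars the group mean ± SD. Dnajc24 is low in Case (2.80 to 58.3), Nipa2, Tspan13 and Slc9a2 are low in Dapa, and 5 of 6 Case mice have the Dyrk2 summit near the start.

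No gene of the lists was called in any of the 3 comparisons. For Case minus Ctrl the medians of the lists ran from −3.16 points (proteasome subunits, 12 of 22 lower) and −2.52 (aminoacyl-tRNA synthetases, 13 of 14 lower) to 1.22 (autophagy and lysosome, 13 of 23 higher), beside −1.49 over all members, of which 62.5% were lower. For Dapa minus Case they ran from −3.54 (chromatin regulators, 19 of 28 lower), −2.39 (autophagy and lysosome, 16 of 23 lower) and −2.23 (cholesterol synthesis, 16 of 19 lower) to 2.19 (proteasome subunits, 15 of 22 higher), beside −0.206 over all members, of which 51.6% were lower. For Dapa minus Ctrl cholesterol synthesis genes had a median of −3.47 (16 of 19 lower), DNA replication and cell cycle genes −3.69 (18 of 26 lower), kidney epithelial genes −4.03 (4 of 5 lower), ribosomal genes 0.964 (33 of 54 higher) and translation initiation factors 1.64 (13 of 21 higher), beside −1.69 over all members, of which 63.1% were lower. The smallest limma adjusted p of a list gene was 0.0578, for a chaperone region in Case against Ctrl.

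The position of the highest summit within a member was compared last. The rule did not use its difference between groups, but it required all summits within 1 joined region, which limits how far a summit can lie from the others. Limma called no member as moved in any of the 3 comparisons, where 0% of all regions were called in Case against Ctrl, 0% in Dapa against Case and 0% in Dapa against Ctrl. The members with an unadjusted p under 0.05 numbered 248 (4.24%), 329 (5.63%) and 205 (3.51%) in the same order, against 4.45%, 5.64% and 3.67% of all regions tested. Summits lay a median of 19 to 22 bp from the region's median summit in Ctrl libraries, 22 to 30 bp in Case and 23 to 27 bp in Dapa.

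Dyrk2, a protein kinase gene, was first in the order of p in the first 2 comparisons. Its summit lay at −728, −785, −716, −638 and −733 bp from the start in Ctrl, and between −736 and −631 bp in Dapa. In Case it lay at 48, 40, 41, −80 and −186 bp in 5 mice and at −654 bp in Case 1. Case 1 was the mouse that fell with the other groups (limma adjusted p = 0.133 against Ctrl and 0.115 for Dapa against Case). Without Case 1 both passed by limma, with adjusted p = 5.72e-07 and 4.71e-07. Since Case 1 is the mouse that decides the separation, these 2 values are no support for a difference, and Dyrk2 passed in no other omission of a mouse. The region is chr10:118868851-118870184, and the GC-rich stretch printed for Dyrk2 lies directly upstream of the start and holds the summit of Case 5.

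The other members named by the order of p are given as values, since none passed the test and several of the groups overlapped. In Syn3, a synapsin gene, it lay at −134 to −55 bp in Case, −52 to −32 bp in Ctrl and −63 to −25 bp in Dapa (limma adjusted p = 0.982 against Ctrl and 0.357 for Dapa against Case). In Armh4 it lay at 237 to 328 bp in 5 Case mice, at 14 bp in Case 3, at −78 to −17 bp in Dapa, and in Ctrl at 265 bp in Ctrl 1 and at −55, −75, 35 and −67 bp in the others (adjusted p = 0.236 by limma). In the carrier gene Slc25a48 it lay at 485 to 549 bp in Ctrl, at −48 to 11 bp in 4 Case mice, at 173 bp in Case 3 and 459 bp in Case 4, and in Dapa at 40 bp in Dapa 8 and at 390 bp or farther downstream in the others (limma adjusted p = 0.982 for Case against Ctrl). In Paip2b, a regulator of translation, it lay at −211 to −137 bp in Case and −132 to −16 bp in Dapa, which did not overlap (limma adjusted p = 0.236). In Actr3, of the Arp2/3 complex, it lay at −83, 8, 184, 99 and 71 bp in Ctrl and at −100 to −65 bp in all 12 db/db mice, and did not pass the test (limma adjusted p = 0.982 for Case and 0.9995 for Dapa). It passed only without Ctrl 1, the Ctrl mouse within the db/db values (limma adjusted p = 0.0325 and 0.0253). Since Ctrl 1 decides the separation, these values are no support for a difference. In Rnf14 the Ctrl summits lay at −105, −103, 208, 120 and 129 bp and the Dapa summits at −209 to −89 bp. In C1rl the values were −60 to 30 bp in Ctrl and −88 to −35 bp in Dapa, and in the ATP synthase gene Atp5g3 they were −27 to 36 bp and −109 to −14 bp. Leaving out Case 6 called 1 further member, Dek, in both comparisons with Case. A call that needs 1 mouse left out is no support for a difference.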

How the data were processed

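ATAC-seq was performed on kidney cells of 17 mice. By the paper's account, the authors aligned reads to mm10 with Bowtie2 by way of the ENCODE pipeline. It states that duplicate reads and blacklisted regions were taken out and that reads were shifted for the transposase. Peaks were called with MACS2 per library (versions are not given in the sources used here). Whether the deposited lists are free of blacklisted regions was not checked. In the deposited lists a −log10 score stands beside each summit, of a p-value or q-value (which was not stated). Depth is unknown and bears on such scores. Therefore only ranks within lists of equal length (29702) were used, with equal scores in a random order at the end of a list. The members and gene lists were chosen with earlier results of these data known.

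Positions were matched to GENCODE vM21 and GRCm38. Near-identical copies were hits of at least 95% identity over 270 bp (minimap2 2.31-r1302). Rank percentiles were compared by limma 3.58.1 in R 4.3.3 (all 17 libraries in 1 fit, mean-variance trend, 2-sided, Benjamini-Hochberg over 7867 regions, threshold 0.05), and summit positions by limma with robust variances. The procedure was tested on simulated data with independent normal noise, without equal scores and without the upper bound of the ranks. It was thus not tested for these features of the real values. No covariate was used. Mice were the replicates. Alternatives were re-ranking within the constitutive regions, normal scores, the mean of summits, extensions of 100 and 500 bp, lists of 14851 or of all summits, a distance of 500 bp, any transcript of a coding gene, regions in at least 15 libraries, 2-group fits, library weights, no trend, autosomes only, a replicate block and each mouse left out. Another order of equal scores, members without copies or repeats, and omission of Case 3 and Dapa 8 together were chosen after seeing the data.

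Named members were, per comparison, those past the threshold (up to 8 in each direction, otherwise the first 4 by p), the 8 highest and 4 lowest by mean percentile, the 4 smallest and 4 largest SDs, 2 highest and 1 lowest of each list, 4 on each side of the rule's limit and 2 in each direction by position. Dek was named after its values were seen. A list gene that the rule names is not reported here. Sequences came from GRCm38, and RefSeq promoter windows from a GRCm38 table.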

Additional observations from a re-analysis of the deposited data

Results flagged for a closer look

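A mouse lay far from the others of its group in 17 of 75 groups of values examined, where chance gives about 1 in 20 for independent groups. These groups reuse the same mice, several of the measures are related and some members were named for a difference between groups, so the 2 shares cannot be compared directly. Case 3 was the lowest of Case for the median percentile of constitutive regions away from promoters (70.8, the next 80.9). It was the highest of Case for the rank correlation of percentile with CpG ratio (0.152, the next −0.0562), for the share of members over percentile 90 (38.6%, the next 36.7%) and for the members' share of summits at percentile 90 or above (76.2%, the next 72.5%). Dapa 8 did the same in Dapa, with 76.9 (the next 81.5), 0.0837 (the next −0.0896), 41.1% (the next 36.9%) and 80.9% (the next 71.7%). Ctrl 2 had the most members under percentile 50 in Ctrl (5.41%, the next 3.78%).

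Among named members, Gm11168 was lowest of Case in Case 5 (92.2, the next 96.4). Gm17535 was highest of Ctrl in Ctrl 4 (98.9, the next 95.2) and lowest of Dapa in Dapa 8 (97.1, the next 99.2), and Gm10718 was lowest of Dapa in Dapa 8 (94.2, the next 97.8). Vezt was lowest of Dapa in Dapa 10 (96.4, the next 98.6) and Trp53inp2 lowest of Case in Case 3 (89.3, the next 93.7). Stag1 was highest of Dapa in Dapa 8 (94.2, the next 76.4), and Tspan13 was highest of Case in Case 2 (91.5, the next 58.3). Causes were not tested.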

How the results depend on the processing

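For Case against Ctrl the main test called 5 members. The count was 38 with re-ranked percentiles, 93 with normal scores, 27 with library weights, 9 with lists of 14851 summits, 1 with all summits, 1 without a trend, 0 with regions in at least 15 libraries, 0 with the 2 groups alone and 2 without copies or repeats. For Dapa against Ctrl it called 9, and the count was 31 with re-ranked percentiles, 42 with normal scores, 1 with all summits, 1 without a trend, 1 with regions in at least 15 libraries, 0 with the 2 groups alone, 5 without copies or repeats and 16 without Case 3 and Dapa 8. Leaving out each mouse in turn gave 0 to 16 members for Case against Ctrl (0 without Ctrl 1 or Ctrl 3, 1 without Case 1 or Case 6, 2 without Ctrl 2, 9 without Ctrl 5 and 16 without Ctrl 4). It gave 0 to 16 for Dapa against Ctrl (0 without Ctrl 1, Ctrl 3 or Dapa 9, 1 without Dapa 7, Dapa 10 or Dapa 12, 2 without Ctrl 2 and 16 without Ctrl 4). For Dapa against Case every alternative run gave 0. The causes were not tested. Shares over all regions are given above for the main test, re-ranked percentiles, normal scores, library weights and the omission of Case 3 and Dapa 8. No such share is given for the other settings or for single mice left out. Those counts therefore show how the calls depend on the setting and are no result about the members.

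Same-numbered Ctrl and Case mice shared only a number (correlations of deviations −0.0635 to 0.0344 over 5 pairs). With the replicate block, 0 members were called by rank percentile and 0 by position in Case against Ctrl. Summit position called 0 to 1 members when a mouse was left out in each of the 3 comparisons and 0 in the other alternatives. Of 617 values of named members under alternatives, none changed direction. That is no support for a difference, since these members were named by their p in the same data. Alternatives in which a named member was absent are not counted. Of the 390 values that belong to called members, 181 lost their call. Another order of equal scores gave 5 and 9 calls.

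Unknown depth, rank scales bounded at 100 and the short lists of 4 db/db mice limit these comparisons, and a promoter absent from any 1 mouse could not be a member.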
